A study of Mus musculus with 15 samples.

Results

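The carbonic anhydrases of the mouse cecum were examined as 10 named genes, Car1, Car2, Car3, Car4, Car5b, Car7, Car8, Car9, Car12 and Car13. The members were chosen by gene symbol, and all 10 were found among the 45808 rows of the expression table. Car1 was the most abundant RNA of the cecum in 6 of 7 antibiotic-treated mice and in 1 of 8 vehicle-treated mice. In 6 of the vehicle-treated mice the mitochondrial RNA mt-Co1 led instead. The rise of Car1 itself did not pass the test across all genes. Car13 and Car12 were higher in the antibiotic-treated mice, at 1.39 and 1.43 times the mean of the vehicle-treated mice. Car3 was lower, with a mean 3.48 times as high in the vehicle-treated mice. Car2 had a lower mean that fell short of the threshold, and Car9 had almost equal means in both groups beside a list of hypoxia-induced genes of which 13 of 16 rose.

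Cecal RNA came from 15 wild-type C57BL/6 mice, labelled as 20 weeks old and described in the methods as male. In the antibiotic-induced microbiome depletion (AIMD) group, 7 mice were gavaged 2 times a day for 30 days with ampicillin, vancomycin, metronidazole, neomycin and amphotericin B, and 8 vehicle-treated mice received water. An effect of the drugs and an effect of the lost microbes cannot be told apart in this design. The emptied organ was used whole, so that epithelium, muscle, nerve, blood and fat all contributed RNA.

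Carbonic anhydrases catalyse the reversible hydration of carbon dioxide to bicarbonate and a proton. In the large intestine they supply the protons and bicarbonate that apical exchangers trade for sodium and chloride, and the family is prominent in absorptive colonocytes. Car1, Car2, Car3, Car7 and Car13 are cytosolic enzymes, Car4 is held at the cell surface by a lipid anchor, Car9 and Car12 span the membrane with their active site outside the cell, and Car5b is mitochondrial. Car8 is a related protein that lacks the catalytic activity.

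Levels were deposited as FPKM, the reads on a gene scaled to its length and to a depth value for each library. That value was 0.959 to 1.17 times the reads on genes in AIMD mice. In vehicle-treated mice it was 0.796 to 1.16 times those reads. Between 8679673 and 18108581 reads lay on genes in AIMD mice and between 4372415 and 14405947 in vehicle-treated mice, as recovered from the steps of the FPKM values. Of 11983 genes tested with limma, 36.1% were called at an adjusted p under 0.05. Of the 10 members 8 were abundant enough to be tested and 3 of these were called (37.5%), 2 higher in AIMD mice against 19.4% of all tested genes and 1 lower against 16.7%. The share of members called was near that of all genes. The median log2 fold change of the 8 tested members was 0.00 and that of all tested genes was 0.01.

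Defining genes of colonocytes were present, and the summed FPKM of 12 surface colonocyte markers was 9403 to 13000 in AIMD mice, against 5605 to 10000 under vehicle. Of these 12 markers 6 were higher in AIMD mice and 1, the water channel Aqp8, was lower. Markers of enteric neurons and glia were 4 of 5 tested lower in AIMD mice, and their sum was 2.83 to 5.23 FPKM against 5.13 to 82.3 FPKM, the highest value being that of vehicle replicate 8. The same mouse had the highest sum of smooth muscle markers, 3018 FPKM, where AIMD mice had 213 to 813 FPKM. The part of tissue makeup in the results below was not tested beyond the values given, and in whole tissue fewer cells of a type and less RNA per cell cannot be told apart.

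**Figure D1:**
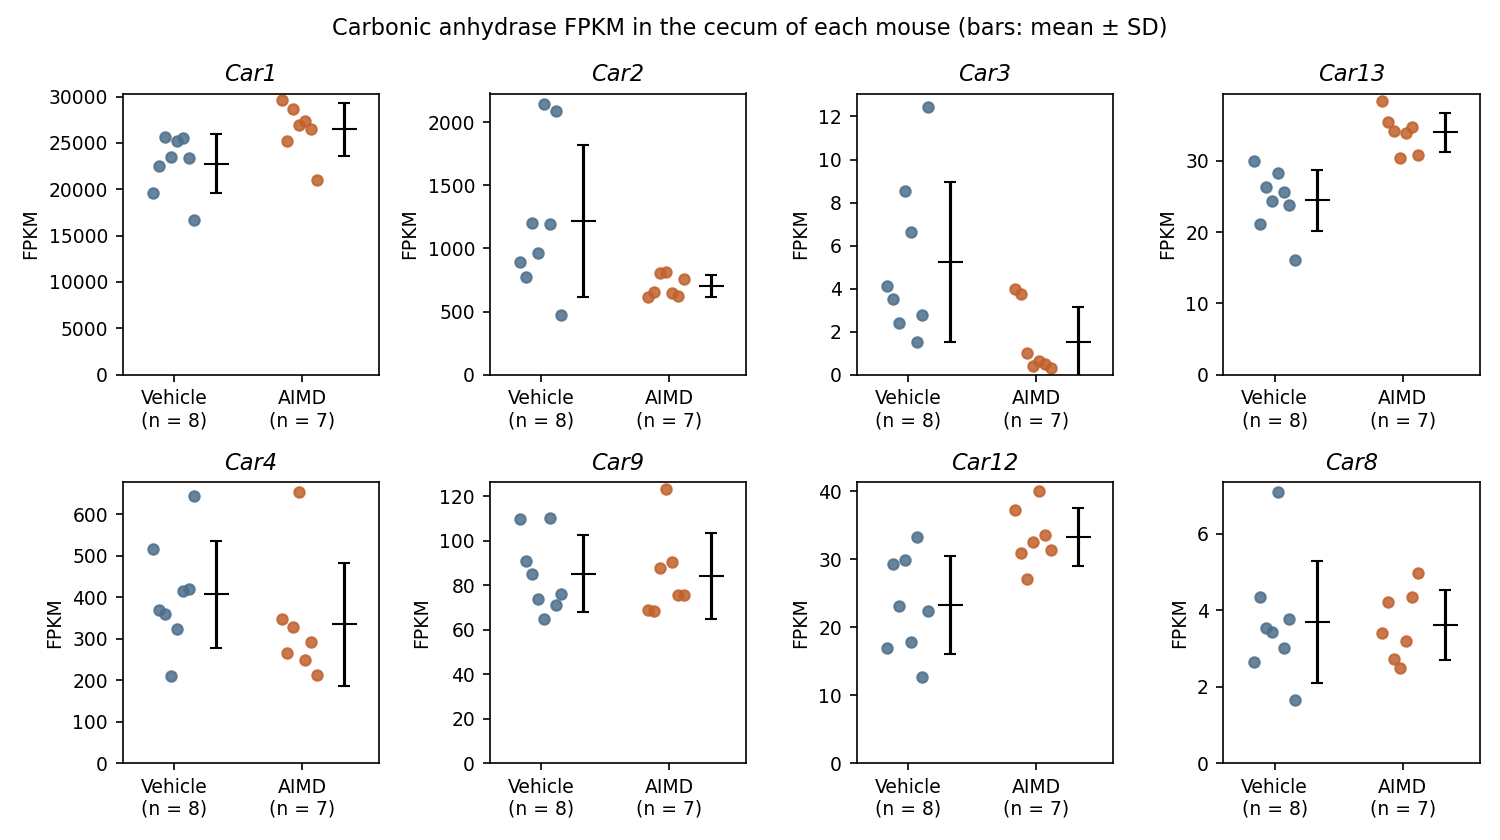
FPKM of the 8 tested carbonic anhydrases (vertical axes, linear from 0), with 1 point per mouse and the mean ± SD beside each group, the Car3 bar of AIMD mice being cut at 0. All 7 AIMD mice lie above all 8 vehicle-treated mice for Car13, while Car2 spreads from 471 to 2143 in vehicle-treated mice and from 615 to 814 in AIMD mice.

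Car1, the major cytosolic carbonic anhydrase of colonocytes, ran from 20960 to 29680 FPKM (median 26950) in the 7 AIMD mice, and from 16670 to 25650 (median 23430) in the 8 vehicle-treated mice. The AIMD mice were mostly the higher ones, with 5 of 7 above every vehicle-treated mouse and 2 vehicle-treated mice below every AIMD mouse. Its mean was 26470 ± 2835 (SD, n = 7) and 22760 ± 3168 (SD, n = 8), giving a log2 fold change of 0.22 with a 95% interval from -0.12 to 0.57. This did not pass the threshold, with a limma p of 0.192 before and 0.304 after adjustment across all genes. The two-sided exact permutation test of Car1 alone, not adjusted, gave p = 0.0413. An exact rank-sum test gave p = 0.0289, and 0.0739 after adjustment across all genes. Quantile normalization, which gives every mouse the same set of values by rank, moved the log2 fold change to 1.00 (limma adjusted p = 0.00335). It was the only alternative under which Car1 was called. Under it the value of Car1 follows its rank and not its own level, and that rank was 1 to 2 in AIMD mice and 1 to 6 in vehicle-treated mice. Without the filter on low values the log2 fold change stayed at 0.22, with a limma adjusted p of 0.771. Its standard error there was 0.48, against 0.17 with the filter, on the same values of the same mice. The limma p-values of Car1 therefore also reflect variance borrowed from other genes, beyond the spread between mice. By mean FPKM the gene ranked 1 of all genes under AIMD and 3 under vehicle. The mitochondrial RNA mt-Co1 held the highest value in 6 vehicle-treated mice and in 1 AIMD mouse. The paper reports a smaller share of reads on the mitochondrial chromosome in AIMD mice. The top rank of Car1 therefore also turns on mt-Co1, whose levels were not compared here. Reads on Car1 were 2.96% to 3.96% of all reads on genes in AIMD mice and 2.083% to 3.397% in vehicle-treated mice.

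Car2, the fast cytosolic enzyme of most epithelia, ran from 615 to 814 FPKM (median 653) in AIMD mice, and from 471 to 2143 (median 1082) in vehicle-treated mice. The AIMD mice lay close together, whereas 6 of 8 vehicle-treated mice were above all of them and vehicle replicate 8, at 471, was below all of them. The mean was 701 ± 86.9 (SD, n = 7) against 1216 ± 602 (SD, n = 8), giving a log2 fold change of -0.65 with a 95% interval from -1.20 to -0.10. Across all genes this missed the threshold (limma adjusted p = 0.0616), and the exact permutation test of Car2 alone gave p = 0.0382. Whether Car2 passed turned on single vehicle-treated mice. Without vehicle replicate 8 the log2 fold change was -0.82 (limma adjusted p = 0.00727), and without vehicle replicate 2 it was -0.72 (limma adjusted p = 0.0447).

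The highest Car2 values, 2143 and 2086 FPKM, belonged to vehicle replicates 5 and 7. These mice, together with vehicle replicate 8, also stood apart in Fabp6, the bile acid binding protein of the ileum, which was 1041, 1062 and 1718 FPKM there and 1.42 to 69.8 FPKM in the other 5 vehicle-treated mice. AIMD mice had Fabp6 between 8.09 and 225 FPKM. Of the 8 ileal enterocyte genes listed 6 were tested and 4 of them were higher in AIMD mice, and the summed level ran from 304 to 682 FPKM in AIMD mice, against from 192 to 2022 in those given vehicle. With the 3 vehicle-treated mice of high Fabp6 left out, a choice made after seeing the data, Car2 was lower in AIMD mice by a log2 fold change of -0.51 (limma adjusted p = 0.0171). The 3 mice also had negative scores, -3.24, -2.70 and -5.10, on the main axis of 15 clock genes, as did vehicle replicate 6. Leaving them out therefore also shifts the balance of clock-gene scores between the groups, and the part of this was not tested.

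Car3, a cytosolic enzyme of low activity that is abundant in fat and skeletal muscle, was a scarce RNA in the cecum, with 10 to 272 reads per mouse. It ran from 0.303 to 3.995 FPKM (median 0.624) in AIMD mice, and from 1.54 to 12.4 (median 3.83) in vehicle-treated mice. The groups overlapped through AIMD replicates 1 and 2, at 3.995 and 3.75 FPKM, and the other 5 AIMD mice were below every vehicle-treated mouse. This was a log2 fold change of -1.62 with a standard error of 0.44 (limma adjusted p = 0.00866), and the exact permutation test gave p = 0.00855. On this scale, where 0.5 is added to each FPKM, the change of low genes is understated. With an exact rank-sum test across all genes the adjusted p was 0.0575.

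Among fat markers, Adipoq and Cfd moved with Car3 from mouse to mouse, and Cidec and Lipe did not. Adipoq, which encodes the adipocyte hormone adiponectin, was 1.45 and 1.63 FPKM in AIMD replicates 1 and 2 and 0 to 0.110 in the other 5 AIMD mice, and it ran from 0.156 to 5.21 in vehicle-treated mice. It was lower in AIMD mice by a log2 fold change of -1.44 (limma adjusted p = 0.0214). Adipoq passed the filter of 0.5 FPKM mostly through the vehicle-treated mice. After centring within the groups, the log2 values of Car3 and Adipoq had a Pearson r of 0.89 over 15 mice and 0.92 over 14 mice without vehicle replicate 8, as a description of points that share library and depth. Cfd, the adipocyte gene adipsin, gave 0.90 in both cases. The fatty acid binding protein Fabp4 gave 0.77 and 0.71, whereas the lipid droplet gene Cidec gave 0.13 and -0.34 and the lipase gene Lipe gave 0.06 and -0.04. Of the 8 adipocyte markers 5 were tested and 1, Adipoq, was lower. Their summed level was 16.7 to 28.3 FPKM in AIMD mice, against 17.5 to 63.0 in those given vehicle. Of 6 skeletal muscle markers 3 were tested and none was called, with sums of 1.23 to 4.45 FPKM and 1.49 to 5.88 FPKM, and Myh4 was at 0 in every mouse.

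Car13, a cytosolic enzyme, ran from 30.4 to 38.3 FPKM (median 34.2) in AIMD mice, and from 16.1 to 29.9 (median 25.0) in vehicle-treated mice. Every AIMD mouse was above every vehicle-treated mouse, as for 5.26% of all tested genes, the groups being apart in either direction for 8.55% of them. It was the only member of the 8 tested without overlap. The mean was 34.0 ± 2.72 (SD, n = 7) against 24.4 ± 4.31 (SD, n = 8), giving a log2 fold change of 0.48 with a 95% interval from 0.23 to 0.74 (limma adjusted p = 0.00576). The exact permutation test gave p = 0.000311, where the smallest p that 7 mice against 8 allow is 0.000155. Leaving out each mouse in turn kept the log2 fold change between 0.41 and 0.53 and the adjusted p at or under 0.0151.

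**Figure D2:**
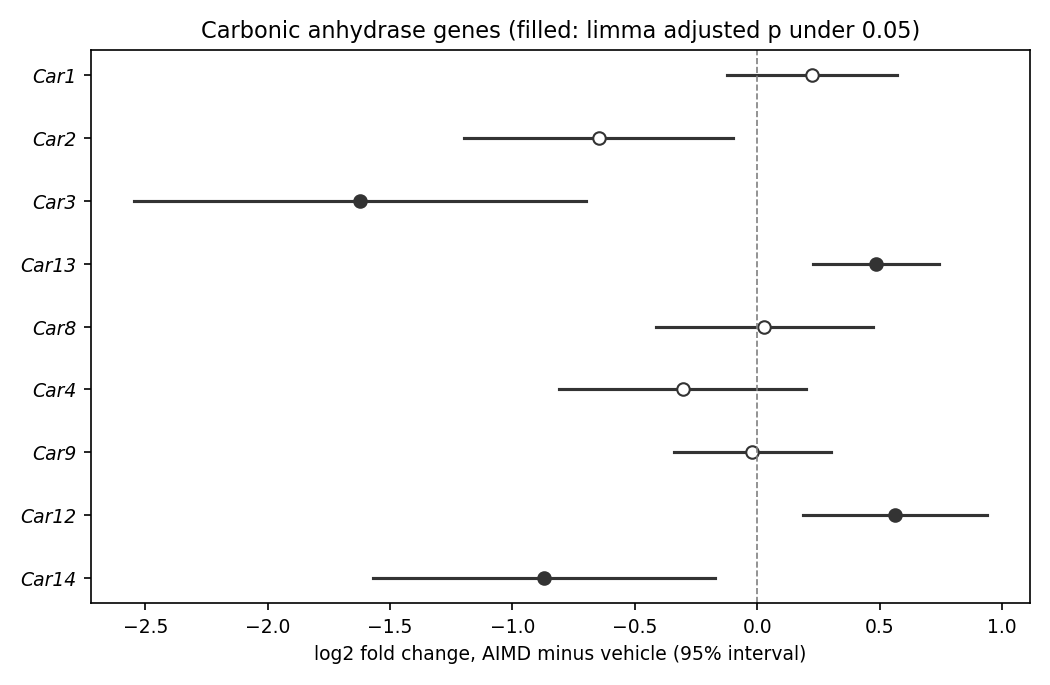
Log2 fold change of each tested carbonic anhydrase, AIMD minus vehicle (horizontal axis), with its 95% interval from limma, filled where the adjusted p was under 0.05. Car12 and Car13 lie above 0, Car3 and Car14 lie below 0, and the intervals of Car1, Car4, Car8 and Car9 span 0.

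Of the members, 4 cytosolic genes lie side by side on chromosome 3 of GRCm38, within 259044 bases, from 14641727 to 14900770. Car13 (14641727 to 14663002), Car3 (14863512 to 14872523) and Car2 (14886273 to 14900770) are on the plus strand and Car1 (14766216 to 14808368) is on the minus strand. Their changes had no common direction. Car13 was higher, Car3 was lower, Car2 had a negative and Car1 a positive log2 fold change that missed the threshold. Between Car13 and Car1 lies Gm5843 (14722416 to 14729626, plus strand), an unprocessed pseudogene, singled out after its values were seen, that shares 167 of the 1246 50-base windows of Car1 transcripts. It ran from 5.05 to 16.5 FPKM in AIMD mice, against from 1.28 to 5.85 in those given vehicle, a log2 fold change of 1.80 (limma adjusted p = 0.000225). Its reads were 0.00714% to 0.0237% of the reads on both genes together in AIMD mice and 0.00210% to 0.00949% in vehicle-treated mice. How reads of the shared stretches were assigned to Car1 or to the pseudogene was not tested.

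**Figure D3:**
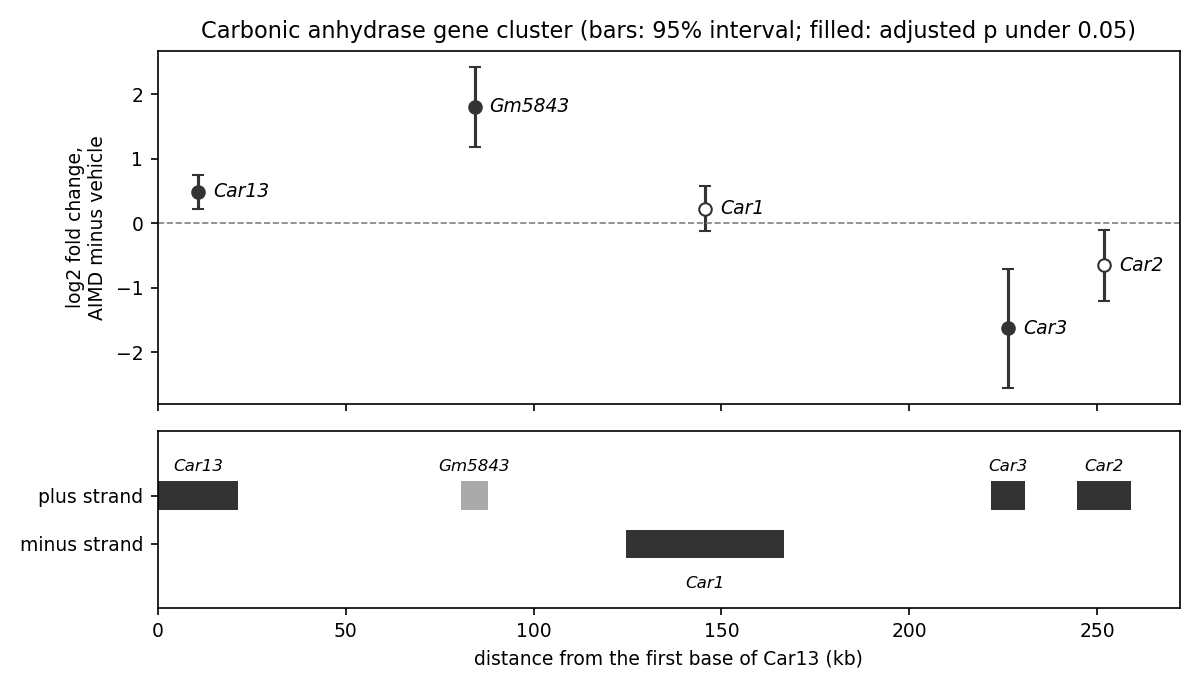
Log2 fold change with its 95% interval (upper panel, filled where the limma adjusted p was under 0.05) and position (lower panel, distance in kb from the first base of Car13) of the carbonic anhydrase genes of chromosome 3 and the pseudogene Gm5843 in grey. Car13 and Gm5843 were higher in AIMD mice, Car3 was lower, and Car1 and Car2 did not pass the threshold.

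The balance between members was compared as log2 ratios within each mouse, over all 28 pairs of the 8 tested members. Exact permutation p-values were adjusted over these 28 ratios, and 9 were under 0.05. Pairs share members, so that they are not independent. The ratio of Car1 to Car2 ran from 27.8 to 48.3 (median 38.6) in AIMD mice and from 11.2 to 35.4 (median 21.7) in vehicle-treated mice. In log2 the AIMD mice exceeded the vehicle-treated mice by 0.87 (exact permutation test, adjusted p = 0.0163), with 5 of 7 AIMD mice above all vehicle-treated mice. Car1 made up 94.2% to 96.4% of the summed FPKM of the 10 members in AIMD mice and 89.9% to 94.7% in vehicle-treated mice. Car2 made up 2.00% to 3.42% and 2.63% to 8.04%.

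The ratio of Car2 to Car13 was the only one of the 28 whose groups did not overlap, with a mean log2 ratio of 4.34 ± 0.272 (SD, n = 7) under AIMD against 5.47 ± 0.584 (SD, n = 8) under vehicle. The difference was -1.13 (exact permutation test, adjusted p = 0.0131). Car2 also fell relative to Car12, by 1.21 (exact permutation test, adjusted p = 0.0290), and relative to Car8, by 0.68 (exact permutation test, adjusted p = 0.0473). Another 4 of the 9 ratios set Car3 against Car1, Car8, Car12 or Car13. The ratio of Car12 to Car13 differed by 0.08 between the groups (exact permutation test, adjusted p = 0.766).

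**Figure D4:**
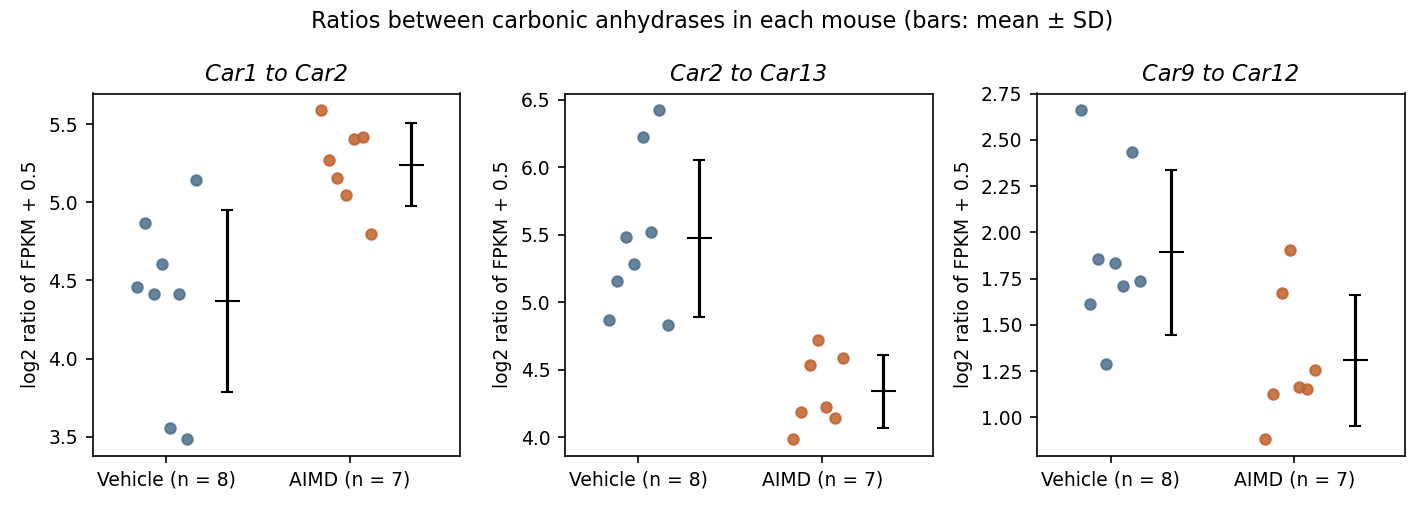
Log2 ratio of FPKM + 0.5 within each mouse for Car1 to Car2, Car2 to Car13 and Car9 to Car12 (vertical axes), with the mean ± SD beside each group. The Car2 to Car13 ratio of every AIMD mouse lies below that of every vehicle-treated mouse, and the other ratios overlap.

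Car12, a transmembrane enzyme with its active site outside the cell, lies on the plus strand of chromosome 9, from 66713686 to 66766845. It ran from 27.1 to 40.0 FPKM (median 32.6) in AIMD mice, and from 12.7 to 33.3 (median 22.8) in vehicle-treated mice. The groups overlapped, with 3 AIMD mice above all vehicle-treated mice and 5 vehicle-treated mice below all AIMD mice. The mean was 33.3 ± 4.24 (SD, n = 7) against 23.2 ± 7.21 (SD, n = 8), giving a log2 fold change of 0.56 with a 95% interval from 0.19 to 0.94 (limma adjusted p = 0.0211). The exact permutation test gave p = 0.00917. The 3 vehicle-treated mice of high Fabp6 had Car12 at 12.7 to 22.4 FPKM, and the other 5 had 16.9 to 33.3. Without these 3 mice, which also had negative clock-gene scores, the log2 fold change was 0.34 and missed the threshold (limma adjusted p = 0.1004). With any single mouse left out Car12 stayed called, at 0.45 to 0.65.

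Car9, a transmembrane enzyme known as a classical target of hypoxia-inducible factor, lies on the plus strand of chromosome 4, from 43506966 to 43513729, and its exons overlap those of Gm12454 on the other strand. It ran from 68.2 to 123 FPKM (median 75.4) in AIMD mice, and from 65.0 to 110 (median 80.5) in vehicle-treated mice. The groups covered nearly the same range. The mean was 84.2 ± 19.3 (SD, n = 7) against 85.1 ± 17.3 (SD, n = 8), giving a log2 fold change of -0.02 with a 95% interval from -0.34 to 0.30 (limma adjusted p = 0.929). The interval allows a mean from 0.790 to 1.23 times that of vehicle-treated mice. Its sign changed with quantile normalization and when some mice were left out.

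Hypoxia-inducible factor is a transcription factor that accumulates when oxygen is low and raises glycolytic enzymes and its own prolyl hydroxylase. Of 16 other known targets listed, all were tested, 13 rose and none fell, with a median log2 fold change of 0.86 where that of all tested genes was 0.01. The glycolytic enzyme Hk2 rose by 1.56, the hydroxylase Egln3 by 1.54, Ankrd37 by 1.54 and lactate dehydrogenase Ldha by 1.00, all with a limma adjusted p of at most 0.000693. The glucose transporter Slc2a1 (log2 fold change -0.27), the mitophagy gene Bnip3 (0.63) and the growth factor Vegfa (0.26) were not called, with limma adjusted p-values of 0.227, 0.0911 and 0.394.

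Car9 was set against each target as a log2 ratio within mice. With exact permutation p-values adjusted over the 32 ratios of Car9 and Car12 to the 16 targets, 12 targets rose relative to Car9, by up to 1.58 for Hk2 (adjusted p = 0.00249). The ratio of Ldha to Car9 rose by 1.02 (adjusted p = 0.00249). Car9 itself changed by -0.02, so these differences nearly repeat the targets' own fold changes and are no separate support. Against Car12 only Hk2 passed as higher, by 1.00 (exact permutation test, adjusted p = 0.00249), and Slc2a1 was lower, by -0.84 (exact permutation test, adjusted p = 0.0237). The ratio of Car9 to Car12 itself was lower in AIMD mice by -0.58 (exact permutation test, adjusted over the 28 member ratios, p = 0.0474).

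**Figure D5:**
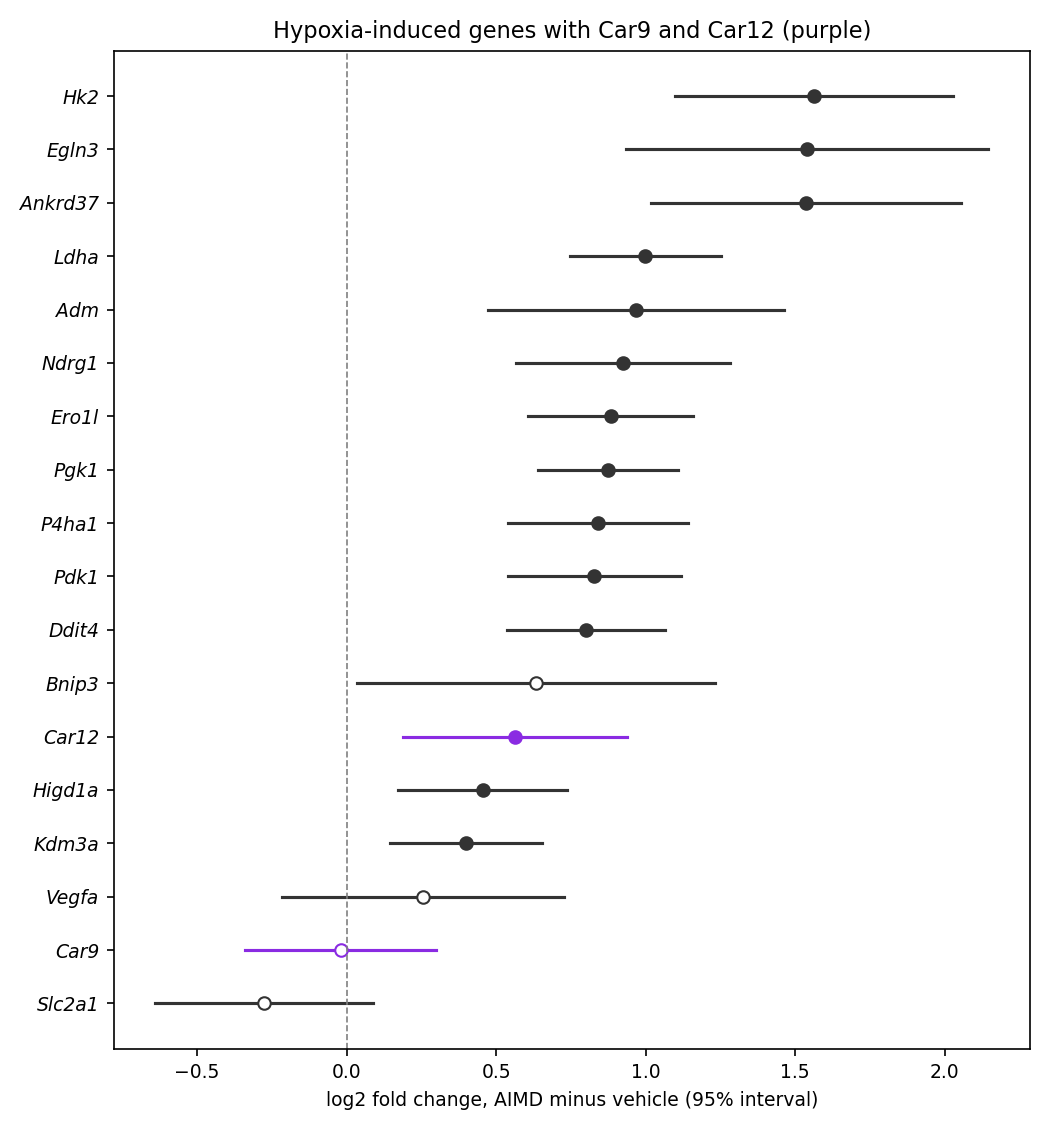
Log2 fold change, AIMD minus vehicle (horizontal axis), with its 95% interval from limma for 16 hypoxia-induced genes in black and Car9 and Car12 in purple, filled where the adjusted p was under 0.05. Car9 lies at -0.02, below 15 of the 16 listed genes, and Car12 lies at 0.56.

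The core that hypoxia-inducible factor binds is ACGTG or GCGTG, and both strands of the 250 bases before each RefSeq gene start (GRCm38.p6) were searched for it. Of 32851 such stretches 38.6% held at least 1 match. Among the members Car9 had 1 match, Car12 and Car4 had none, Car5b had 5, and Car7 had 2, 0 and 1 at its 3 starts. Of the hypoxia targets 14 of 16 were in the table, all with a match at 1 or more of their starts, whereas the 38.6% counts each stretch. The match nearest the start is given below for Car9 and for the 4 targets with the largest rise. Hk2 had 2 matches, Egln3 had 1, Ankrd37 had 4, and Ldha had 5 and 1 at its separate starts. Each sequence reads in the direction of its gene with the match in capitals. CACGT is ACGTG on the opposite strand, so that CACGTG counts as a match on each strand. Distances are from the RefSeq start, which for Car9 lies 60 bases inside the GENCODE gene whose position is given above, so that the match of Car9 falls within the latter.
Car9, chr4:43506996-43507025, plus strand, match 18 bases before the start: ctatttccgatgCACGTacagcccgtccac
Hk2, chr6:82774489-82774518, minus strand, match 52 bases before the start: aatgagcacatcCACGTcactgtccggggc
Egln3, chr12:54204086-54204115, minus strand, match 229 bases before the start: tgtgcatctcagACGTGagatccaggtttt
Ankrd37, chr8:45999839-45999868, minus strand, match 6 bases before the start: cagtgtttgggtACGTGaggccgcagcggg
Ldha, chr7:46845758-46845787, plus strand, match 34 bases before the start: cgtgggttcccgCACGTccgctgggctccc
A match is a description of these letters and does not show binding.

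The upstream stretch of Car12, the membrane member that rose, is given whole for comparison, from chr9:66713436-66713685 on the plus strand. It holds neither form of the core in its 250 bases.
Car12: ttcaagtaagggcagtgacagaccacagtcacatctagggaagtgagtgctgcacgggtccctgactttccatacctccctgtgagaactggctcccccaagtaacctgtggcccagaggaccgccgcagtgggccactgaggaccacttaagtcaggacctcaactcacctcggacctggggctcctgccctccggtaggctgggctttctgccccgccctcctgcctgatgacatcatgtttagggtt

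Car4, the lipid-anchored enzyme of the brush border, lies on the plus strand of chromosome 11, from 84957786 to 84966044. It ran from 212 to 654 FPKM (median 292) in AIMD mice, and from 209 to 643 (median 392) in vehicle-treated mice. The ranges were nearly the same, although AIMD replicate 4 at 654 FPKM stood far above the other AIMD mice. The mean was 335 ± 148 (SD, n = 7) against 407 ± 130 (SD, n = 8), giving a log2 fold change of -0.30 with a 95% interval from -0.81 to 0.20 (limma adjusted p = 0.337). Without AIMD replicate 4 it was -0.47 (limma adjusted p = 0.0844), and with each other mouse left out it also stayed negative and uncalled.

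Car8, the member without catalytic activity, is encoded on chromosome 4 (8143362 to 8239041, minus strand). It ran from 2.49 to 4.98 FPKM in AIMD mice, against from 1.66 to 7.09 in those given vehicle. The AIMD range lay wholly within that of vehicle-treated mice. The log2 fold change of 0.03 had a 95% interval from -0.41 to 0.47 (limma adjusted p = 0.926), and its sign changed when some mice were left out.

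The remaining members were too scarce to test. Mitochondrial Car5b (chromosome X, 163976822 to 164027997, minus strand) had 34 reads in all AIMD mice and 44 in all vehicle-treated mice, and Car7 (chromosome 8, 104534689 to 104550343, plus strand), a cytosolic enzyme best known in neurons, had 7 and 2. At this depth a difference in either was not detectable with any precision. Of the 6 carbonic anhydrase genes outside the members, only transmembrane Car14 passed the filter. Its mean was 0.320 ± 0.234 FPKM (SD, n = 7) under AIMD against 1.31 ± 1.61 (SD, n = 8) under vehicle, giving a log2 fold change of -0.87 (limma adjusted p = 0.0482). Vehicle replicate 8 held 5.21 FPKM of it, and its exons overlap those of Aph1a on the other strand. Secreted Car6 and lipid-anchored Car15, whose exons overlap those of Gm20518 on the same strand, had 12 and 8 reads in AIMD mice and none in vehicle-treated mice, Car10 and Car11 had 14 and 50 reads in all, and mitochondrial Car5a had none.

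By mean FPKM over all mice the order of the members was Car1, Car2, Car4, Car9, Car13, Car12, Car8, Car3, Car5b and Car7. Car13 and Car12, at 28.9 and 27.9 FPKM, did not differ beyond their spread, and neither did Car8 and Car3, at 3.66 and 3.50 FPKM. Within AIMD mice Car8 had the higher mean, at 3.62 ± 0.917 against 1.51 ± 1.63 FPKM (SD, n = 7), although Car3 was the higher in AIMD replicate 1. Within vehicle-treated mice Car3 had the higher mean, at 5.25 ± 3.71 against 3.69 ± 1.59 FPKM (SD, n = 8).

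The enzymes work with exchangers for bicarbonate and protons. Of 17 bicarbonate transport genes listed 6 were tested, 2 were higher in AIMD mice and none was lower, and the median log2 fold change of the 6 was -0.02. Slc4a4, which carries sodium with bicarbonate across the basolateral membrane, rose by 0.79 on the log2 scale (limma adjusted p = 0.00994), and the bestrophin channel Best2 rose by 0.75 (limma adjusted p = 0.0218). The apical chloride-bicarbonate exchanger Slc26a3 had 466.2 ± 105 FPKM (SD, n = 7) and 445 ± 192 FPKM (SD, n = 8) and was not called (limma adjusted p = 0.661).

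Of 12 proton transport genes 7 were tested and 3 rose, with a median log2 fold change of 0.37 over the 7. The sodium-proton exchanger Slc9a3 had 4.81 ± 3.90 FPKM (SD, n = 7) under AIMD against 0.163 ± 0.242 (SD, n = 8) under vehicle, giving a log2 fold change of 2.73 (limma adjusted p = 2.73e-05). Its relative Slc9a2, at a higher level, rose by 0.75 (limma adjusted p = 0.00184), as did the exchanger cofactor Chp2 by 0.75 (limma adjusted p = 0.00133).

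Short-chain acids leave the lumen and lactate leaves the cell through monocarboxylate carriers, which move a proton or sodium with them. Of 7 such genes 5 were tested, 3 fell and 1 rose, with a median log2 fold change of -0.53 over the 5. Slc16a1 fell by 0.89, Slc5a8 by 1.15 and the chaperone Bsg by 0.53 on the log2 scale (limma adjusted p = 0.000936, 0.000625 and 0.0122). The lactate exporter Slc16a3 rose by 1.71 (limma adjusted p = 6.35e-07). Its vehicle mean of 0.367 FPKM also lay under the 0.5 FPKM of the filter, which the AIMD mice alone could pass.

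The genes whose log2 values followed each of the 3 most abundant members most closely were sought over 15 mice after centring within the groups, as a description with no test. Cyp2j6, a cytochrome P450, had the highest Pearson r with Car1, at 0.89, and at 0.81 without vehicle replicate 8. Bfsp1, Serpinb5, Tmem170 and Leo1 followed with 0.80 to 0.83, which fell to 0.64 to 0.79 without vehicle replicate 8. For Car2 the closest was Btbd3, with 0.98 (0.97 without vehicle replicate 8), and Slc33a1, E2f5, Med14 and Dld followed with 0.96 to 0.98. Car4 went with the class I histocompatibility genes H2-K1, at 0.91, and H2-D1, at 0.88, and with Panx1, Kctd5 and Dgat1, at 0.88 to 0.90. The values within each mouse share a library and its depth.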

How the data were processed

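Polyadenylated cecal RNA of 7 AIMD and 8 vehicle-treated mice was sequenced. The authors aligned the reads with STAR (GRCm38), assigned them to GENCODE genes with featureCounts and deposited FPKM per mouse. How counts became FPKM is not given in the sources used here. The authors tested counts with DESeq2, with time of sacrifice as a factor, which the labels do not give. Of 45808 rows, 4 with a repeated symbol were left out.

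The FPKM of each mouse were scaled by a size factor (median of ratios, 13594 genes) and taken to log2 after adding 0.5. Size factors were 1.0101 to 1.0104, so this scaling left the differences between mice almost as deposited. Tests covered genes that reached an FPKM of 0.5 in 7 or more mice, with limma 3.58.1 (R 4.3.3, lmFit, eBayes with trend, Benjamini–Hochberg adjustment, threshold 0.05, two-sided). Exact permutation tests used all 6435 splits of the mice. Reads were recovered as whole multiples (tolerance 0.01 read) for 100% of 24279 genes above 0, and GENCODE M21 lengths served for 67.7% of them (Car12 needed a shorter length). Low depth limits the precision of scarce genes. Only the limma fit was tried on simulated reads, in which far fewer genes changed than were called here and all genes had the same dispersion. As alternatives, the scaling, pseudocount, filter and threshold were varied, and a rank-sum test, voom on recovered reads, a clock-gene covariate, a replicate block and leaving out each mouse were run.

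The members and lists were chosen with earlier results of these data known. The genes named are the members, the other carbonic anhydrases, genes of the lists and, for the 3 most abundant members, the 5 tested genes with a mean FPKM of at least 1 and no predicted-gene symbol that correlate best. Fabp6, Adipoq and Cfd belong to the marker lists. Positions are those of GENCODE M21 and upstream sequences those of RefSeq, which held 5 of the 10 members (Car4, Car5b, Car7, Car9 and Car12). Nothing in the labels pairs mice across groups.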

Additional observations from a re-analysis of the deposited data

Results flagged for a closer look

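Of 16 groups of mice checked for a single distant value, 2 had one, where chance alone gives about 1 in 20. Both belonged to AIMD replicate 4. Its Car4, at 654 FPKM, was farther from the other AIMD mice than their spread, the gap to the next mouse being 0.694 of the whole range of the group. Its Car9, at 123 FPKM, had a gap of 0.598 of the range. Smooth muscle markers summed to 213 FPKM in the same mouse, the lowest of the AIMD group. The part of that in either value was not tested.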

How the results depend on the processing

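Car13 stayed called at an adjusted p under 0.05 under every alternative run and Car4 stayed uncalled. Car1, Car2, Car3 and Car12 kept their direction. Some alternatives could not change a direction. The clock-gene covariate was centred within the groups, and it, the filters and the rank-sum test leave the log2 fold change as it is. Leaving out the size factors, which were nearly equal, changed almost nothing by construction. The number of genes called was 3506 to 4616 with each mouse left out, and 3 or 4 members were called. With an absolute log2 fold change of at least 1 required as well, 766 genes (383 higher and 383 lower) and 1 member, Car3, were called. Quantile normalization, which sets values by rank alone, gave Car1 1.00 and Car9 0.0595. Car1 ranked 1 to 2 in AIMD mice and 1 to 6 in vehicle-treated mice, so the 1.00 is no measure of its own level. The cause of the change in Car9 was not tested. An exact rank-sum test gave Car3 an adjusted p of 0.0575. Without the 3 vehicle-treated mice of high Fabp6, Car2 was -0.51 (limma adjusted p = 0.0171) and Car12 was 0.34 (limma adjusted p = 0.1004). This choice also shifts the balance of clock-gene scores between the groups. With each mouse left out Car2 ranged from -0.82 to -0.51, Car4 from -0.47 to -0.20, Car8 from -0.0941 to 0.16 and Car9 from -0.11 to 0.0366, so that the last 2 changed sign.

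Replicate numbers name different mice. Same-numbered mice had correlations of -0.35 to 0.43 over 7 pairs and 1 AIMD mouse correlated best with its own number. With a replicate block Car2 was -0.82 (limma adjusted p = 0.0101), Car8 was -0.10, 4652 genes were called and 4 members were called. Vehicle replicate 8 has no AIMD mouse of its number, so in this fit it adds nothing to the treatment difference. Car2 was also -0.82 with that mouse simply left out, so the block is no separate check. Sequencing depth limited Car5b and Car7, and the time of sacrifice is not given in the labels.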
